A study of Mus musculus with 12 samples.

Results

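Collagens, laminins and integrins are main components of the extracellular matrix and of the receptors that hold cells to it. Expression of these genes was read from 12 RNA-seq libraries of mouse embryonic cortex (E15.5). The members were chosen by a rule on gene symbols, and the choice was made with earlier results of these data known. The rule gave 77 protein-coding genes out of 48709 genes counted. They comprise 44 genes for collagen chains, 11 for laminin chains and 22 for integrin subunits. After a filter on low counts, 70 of the 77 were tested (40 collagen, 11 laminin and 19 integrin genes). The other 7 did not pass: Col6a6, Col10a1, Col13a1, Col17a1, Itgax, Itgb6 and Itgb7. Of these, none exceeded 13 reads in a library.

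The series holds 4 control libraries, 4 from a BAF155 conditional knockout (cKO) and 4 labelled Pax6 cKO, all of strain C57BL/6J by the labels. Smarcc1 encodes BAF155, a scaffold protein of the SWI/SNF-type BAF remodellers of chromatin, and Pax6 is a transcription factor of cortical radial glia. The labels give neither the genotype of the controls nor the promoter that drove Cre, and do not tie each library to an embryo of its own. The p-values therefore measure the spread between libraries, which may be technical. Depth was 15.2 to 32.05 M reads per library. The 77 members together took 0.0994% to 0.13% of the reads.

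Basement membranes are thin sheets of matrix in which a laminin network binds to cells and a collagen IV network gives strength. A laminin is a trimer of an alpha, a beta and a gamma chain. In the embryonic cortex the outer basement membrane lies under the meninges, where the endfeet of radial glia attach through integrins, and other basement membranes surround the blood vessels. Fibrillar collagens form the fibres of connective tissue, FACIT collagens sit on the surface of such fibres, and each integrin pairs an alpha with a beta subunit. In whole tissue, fewer cells of a type and less RNA per cell cannot be told apart.

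The targeted genes were checked first. Smarcc1 was measured at 303 ± 68.7 CPM (reads of the gene scaled to library size) in control, 127 ± 10.8 CPM in BAF155 cKO cortex and 186 ± 6.71 CPM in cortex labelled Pax6 cKO (mean ± SD, n = 4 libraries each). It fell in both, with log2 fold changes of −1.25 (SE 0.13, adjusted p = 1.64e-05) and −0.70 (SE 0.13, adjusted p = 0.00128), and every cKO library lay below every control. Whole-gene counts of Pax6 went against the label, at 110.2 ± 19.1 CPM in control, 314 ± 40.3 CPM in BAF155 cKO cortex and 389 ± 8.73 CPM in cortex labelled Pax6 cKO. Reads outside a deleted part would be counted in these values, and the labels do not say which part was deleted. Xist, a transcript of female cells, was at 963.5 and 964.3 CPM in control replicates 3 and 4 and at 1811 CPM or more in BAF155 cKO cortex libraries, against at most 5.75 CPM in the other 6 libraries. The names of the deposited tables give lane 8 for every control, lane 1 for all libraries labelled Pax6 cKO, and both lanes 1 (replicates 1, 2) and 3 (replicates 3, 4) for BAF155 cKO. Being a control and lane 8 cannot be told apart, and both comparisons share the same 4 controls.

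Promoter sequence is shown for some of the laminin and collagen IV genes that fell in both comparisons below, as a stretch before the start of transcription. Lama1, Lama2 and Lamc1 also fell in both, and their sequence is not shown. The sequences are RefSeq, build GRCm38.p6, written 5′ to 3′ on the strand of the gene, and bases that lie in annotated exons were left out. Capitals mark a CCAAT box (CCAAT), a GC box (GGGCGG) or a TATA box (TATAAA) on either strand, and no match overlapped another. The stretches end 60 bases before the start site in Lamb1, 127 in Lamb2 and 35 in Col4a5, and at the base before it in the others. In the bases shown, Lama5 holds 4 GC boxes, Lamb1 2 GC boxes and 1 CCAAT box, Col4a6 1 GC box and Col4a5 1 CCAAT box. Lamb2 and Col4a4 hold none of the 3 motifs there, and bases nearer the start were not searched in Lamb1, Lamb2 and Col4a5.
Lama5, chr2:180225860-180226109, minus strand: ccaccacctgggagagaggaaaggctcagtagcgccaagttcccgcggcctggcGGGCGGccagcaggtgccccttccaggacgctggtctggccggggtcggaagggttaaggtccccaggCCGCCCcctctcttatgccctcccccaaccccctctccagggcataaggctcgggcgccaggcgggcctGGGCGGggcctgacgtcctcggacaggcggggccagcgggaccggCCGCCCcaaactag
Lamb1, chr12:31265043-31265233, plus strand: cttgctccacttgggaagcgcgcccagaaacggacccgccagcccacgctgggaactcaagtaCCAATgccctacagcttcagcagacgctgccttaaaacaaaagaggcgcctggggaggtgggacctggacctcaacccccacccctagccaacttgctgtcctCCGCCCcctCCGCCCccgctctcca
Lamb2, chr9:108479612-108479735, plus strand: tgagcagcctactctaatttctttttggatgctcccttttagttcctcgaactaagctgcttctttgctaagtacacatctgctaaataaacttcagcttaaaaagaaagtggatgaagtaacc
Col4a6, chrX:141474077-141474326, minus strand: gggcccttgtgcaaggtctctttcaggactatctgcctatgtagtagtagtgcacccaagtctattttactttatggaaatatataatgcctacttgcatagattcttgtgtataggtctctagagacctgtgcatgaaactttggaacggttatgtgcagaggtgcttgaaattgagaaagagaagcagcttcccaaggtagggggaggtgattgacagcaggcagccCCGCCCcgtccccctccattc
Col4a5, chrX:141475169-141475384, plus strand: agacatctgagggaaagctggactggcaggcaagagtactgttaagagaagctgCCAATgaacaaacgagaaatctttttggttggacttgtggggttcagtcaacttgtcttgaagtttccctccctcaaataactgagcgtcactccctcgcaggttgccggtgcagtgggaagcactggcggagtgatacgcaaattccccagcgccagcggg
Col4a4, chr1:82586850-82586920, minus strand: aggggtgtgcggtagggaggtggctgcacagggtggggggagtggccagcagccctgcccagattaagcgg
The GC content of these stretches ran from 37.9% in Lamb2 to 72.4% in Lama5. RefSeq promoters were matched by symbol for 57 members. In the 250 bases before the start site, 28 of the 57 held a GC box, against 32.7% of 32851 promoters. A CCAAT box stood in 15 of the 57 against 33.8% of all, and a TATA box in 5 against 12.4%. Each member entered with 1 promoter, while the background took every entry, not limited to protein-coding or tested genes, so the sets are unlike. Of the 13 matched members that fell in both comparisons, 8 held a GC box, 3 a CCAAT box and 0 a TATA box. A match describes the letters only. The collagen IV genes lie head to head in 3 pairs. In mm10, Col4a4 and Col4a3 are 71 bases apart, the short stretch shown is the whole gap between them, and Col4a6 and Col4a5 are 1308 bases apart. The annotated starts of Col4a1 and Col4a2 overlap by 22 bases, so unstranded reads there cannot be assigned to either.

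Among the members, Itgb1 was the most abundant transcript in control cortex on a length-corrected scale. Itgb1, the beta subunit shared by most laminin, collagen and fibronectin receptors, was at 51.1 ± 2.94 RPKM, that is CPM divided by exon length in kilobases. Every control value of Itgb1 lay above every control value of the next gene. The order went on with Col4a1 at 18.5 ± 3.98, Col4a2 at 12.1 ± 2.43, Lamc1 at 9.54 ± 0.91 and Itga6 at 8.40 ± 0.79 RPKM. From Col4a1 down to Col4a6 in place 34, the control values of each gene overlapped those of its neighbour in the order, as they did from place 35 to 77, and Col4a6 lay wholly above the gene after it. The main collagen IV chains and the common laminin gamma chain thus led the ligands, and the laminin receptor subunit Itga6 led the integrin alpha subunits. Col3a1, Col1a2 and Col1a1, the main collagens of meningeal fibroblasts, were low, at 0.42 ± 0.09, 0.36 ± 0.10 and 0.10 ± 0.03 RPKM. The other fibrillar genes ran from 0.09 ± 0.02 RPKM in Col5a3 to 5.73 ± 1.64 RPKM in Col2a1, with Col5a2 at 2.99 ± 0.64 RPKM. These fibrillar values were chosen for mention after they were seen.

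The series design names BAF155 cKO against control as its first comparison. Of the 70 members tested, 18 fell, 2 rose and 50 did not pass an adjusted p of 0.05 (edgeR's quasi-likelihood test, Benjamini-Hochberg adjustment over 16511 genes). That is 28.6% of the members, where 13.6% of all tested genes were called, 7.56% lower and 6.04% higher. The median log2 fold change of the 70 was −0.17 against 0.01 over all genes. The 18 were 9 collagen, 6 laminin and 3 integrin genes, and the 2 that rose were Col6a5 and Lamb3. In 17 members every BAF155 cKO library lay below every control, as in 7.95% of all genes, and in 2 every one lay above, as in 6.47% (14.4% either way).

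The design also names the comparison of the Pax6 cKO with control. In the libraries labelled Pax6 cKO, 23 members fell, 5 rose and 42 did not pass, which is 40% of the members where 35.5% of all tested genes were called, 18.9% lower and 16.6% higher. The share called therefore lay near the background. The split was 23 lower to 5 higher among members and 3121 to 2745 among all genes, and with offsets for GC content and gene length it was 17 to 10 among members. The median log2 fold change of the members was −0.15 against 0.02 over all genes. The 23 were 13 collagen, 6 laminin and 4 integrin genes, and the 5 that rose were all collagens: Col6a1, Col6a2, Col6a4, Col9a3 and Col20a1. In 22 members every labelled library lay below every control, as in 18.3% of all genes, and in 5 every one lay above, as in 17.2% (35.6% either way). Since the controls are shared, the comparisons are not independent. Side by side, 17 members fell in both, 1 fell only in the first, 6 fell only in the second and 39 were called in neither, and the direct test below says where the cKO groups differ.

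**Figure D1:**
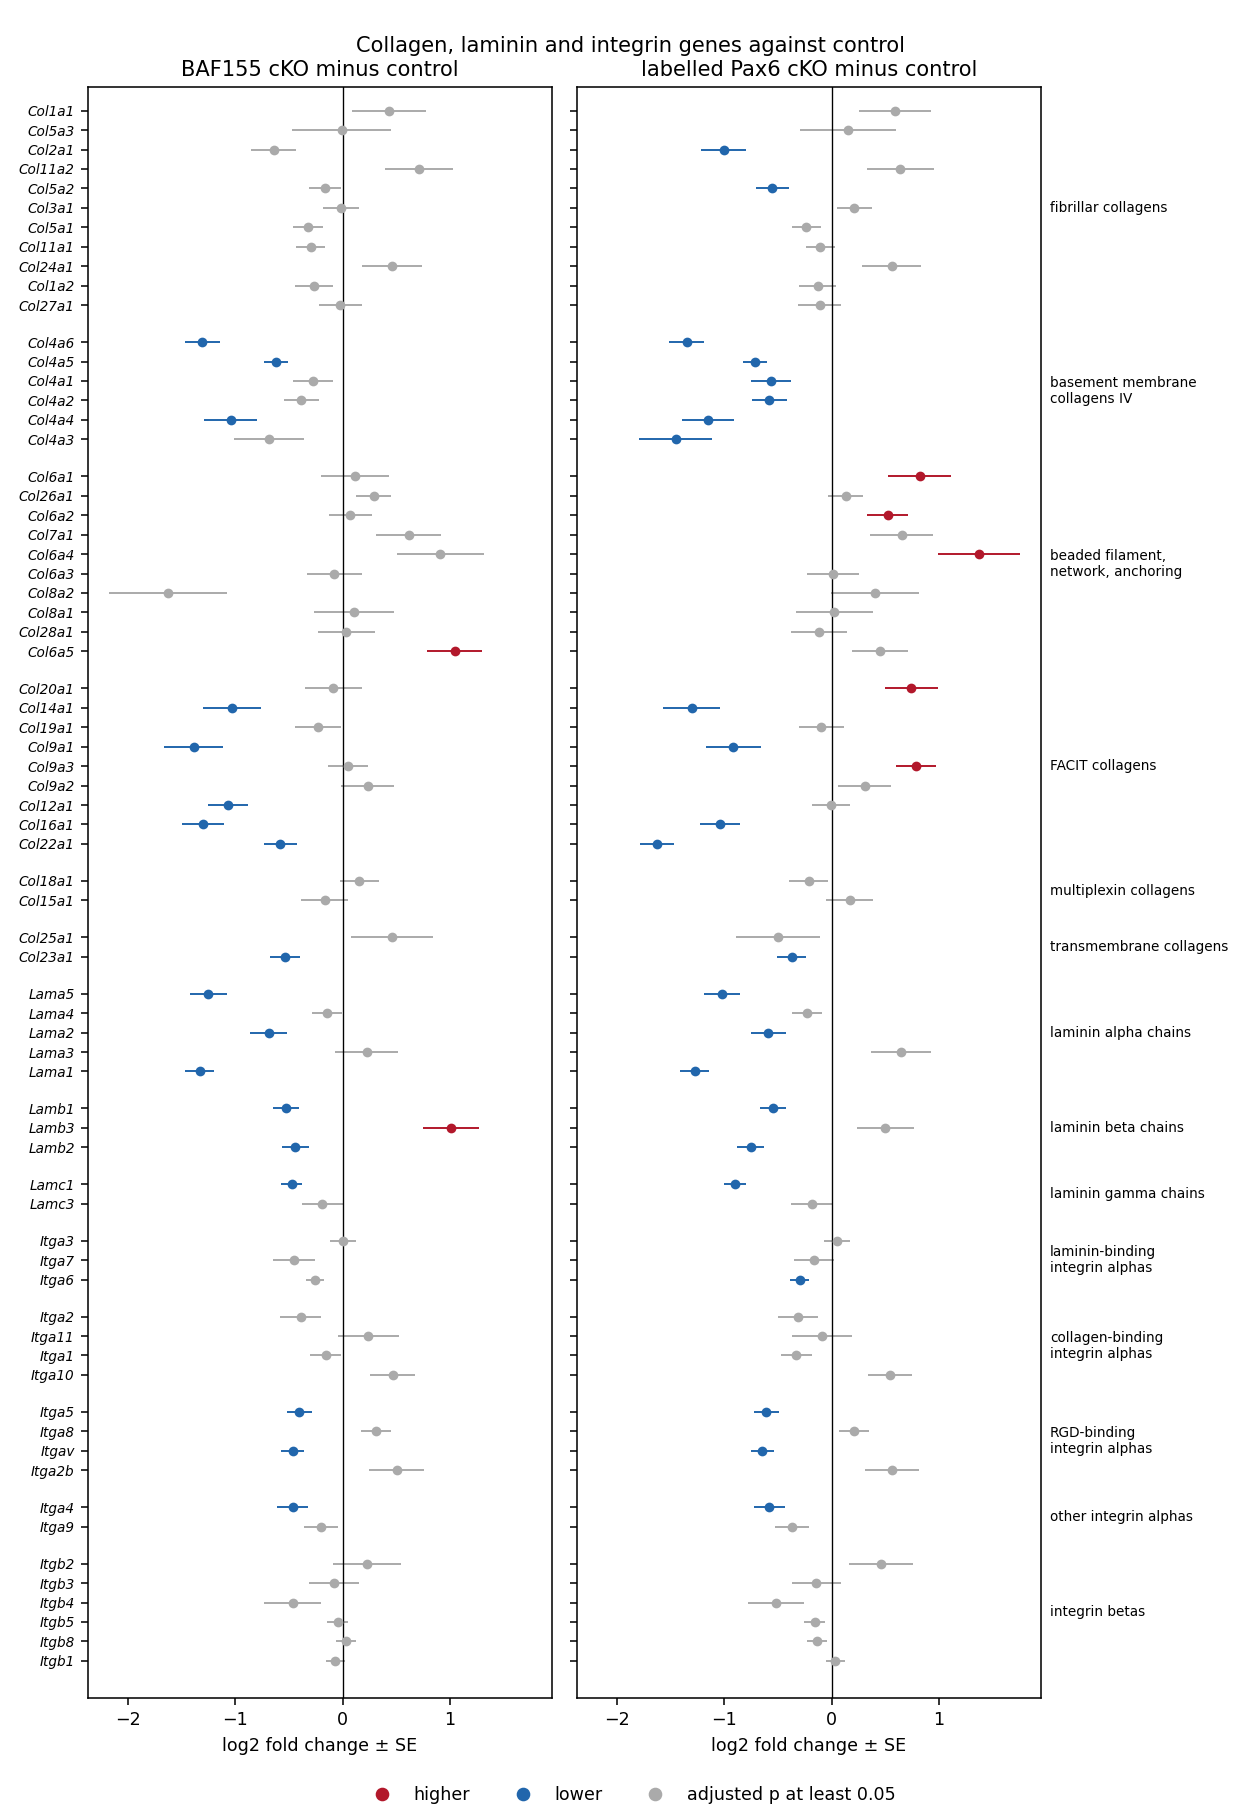
Log2 fold change (x axis, ± SE) of 69 of the 70 tested members (y axis, by role) in BAF155 cKO cortex and in cortex labelled Pax6 cKO, both against the 4 controls. Blue points fell, red points rose and grey points did not pass: 18, 2 and 49 on the left and 23, 5 and 41 on the right.

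Laminin alpha chains set the identity of a laminin and carry its cell-binding end. Of the 5 genes, 3 fell in both comparisons. That is 60% called in each, where 13.6% and 35.5% of all tested genes were called. Lama1 (ENSMUSG00000032796, mm10 chr17:67697259-67822647, plus strand) encodes the alpha chain of the first laminin of the embryo, which is abundant in the outer basement membrane of the brain. In replicates 1 to 4, the order used throughout, Lama1 was measured at 14.3, 12.1, 17.5 and 17.8 CPM in control. It was at 5.94, 5.82, 6.22 and 6.51 CPM in BAF155 cKO cortex and at 6.89, 5.44, 6.89 and 6.11 CPM in cortex labelled Pax6 cKO. The 8 cKO values lay between 5.44 and 6.89 CPM and the 4 controls between 12.1 and 17.8 CPM, with no overlap. Lama1 fell in both, with log2 fold changes of −1.33 (SE 0.14, adjusted p = 1.29e-05) in BAF155 cKO cortex and −1.28 (SE 0.13, adjusted p = 1.06e-05) in cortex labelled Pax6 cKO. Lama5 (ENSMUSG00000015647, mm10 chr2:180176373-180225859, minus strand) encodes the alpha chain of the most widespread laminin. Lama5 stood at 16.8, 17.4, 20.98 and 17.5 CPM in control, 10.8, 7.03, 4.88 and 7.41 CPM in BAF155 cKO cortex and at 9.68, 9.14, 8.63 and 8.34 CPM where labelled Pax6 cKO. No cKO library reached the lowest control, and the BAF155 cKO libraries spread more widely than the labelled Pax6 cKO libraries. Lama5 fell in both, with log2 fold changes of −1.25 (SE 0.17, adjusted p = 0.000243) in BAF155 cKO cortex and −1.02 (SE 0.17, adjusted p = 0.000608) in cortex labelled Pax6 cKO. Lama2 encodes the alpha chain of muscle and nerve laminins. Lama2 was measured at 7.77, 6.35, 5.90 and 5.30 CPM in control, 4.74, 3.57, 4.57 and 2.81 CPM in BAF155 cKO cortex and 4.20, 3.78, 4.60 and 4.28 CPM in cortex labelled Pax6 cKO. The groups did not overlap, though the highest BAF155 cKO value lay close under the lowest control. Lama2 fell in both, with log2 fold changes of −0.69 (SE 0.17, adjusted p = 0.0164) in BAF155 cKO cortex and −0.59 (SE 0.17, adjusted p = 0.0133) in cortex labelled Pax6 cKO. Without BAF155 cKO replicate 4 the Lama2 call in BAF155 cKO cortex was lost (adjusted p = 0.0559). Lama4, the alpha chain of vascular laminins and the alpha chain gene of highest RPKM in control, was not called: its log2 fold changes were −0.15 (adjusted p = 0.481) and −0.23 (adjusted p = 0.217). In Lama4 the 4 BAF155 cKO values were 17.5, 25.9, 27.5 and 17.9 CPM, so replicates 2 and 3 stood with the controls and 1 and 4 below them. Lama3, an alpha chain of epithelial laminin, was at about 1 CPM in control and had log2 fold changes of 0.23 (adjusted p = 0.611) and 0.65 (adjusted p = 0.0838).

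Lamb1, Lamb2 and Lamc1, which encode beta and gamma chains that pair with these alpha chains, also fell in both comparisons. Lamb1 encodes the beta chain of most embryonic laminins. Control libraries held Lamb1 at 52.9, 39.7, 63.9 and 59.5 CPM, BAF155 cKO libraries 37.1, 41.2, 39.5 and 31.7 CPM and libraries labelled Pax6 cKO 36.6, 38.8, 37.3 and 35.3 CPM. All labelled Pax6 cKO values lay below the controls, and BAF155 cKO replicate 2 lay above control replicate 2. Lamb1 fell in both, with log2 fold changes of −0.53 (SE 0.12, adjusted p = 0.0122) in BAF155 cKO cortex and −0.55 (SE 0.12, adjusted p = 0.00412) in cortex labelled Pax6 cKO. Lamb2, the beta chain of synaptic and vascular laminins, is the beta gene of highest RPKM in control. Lamb2 stood at 29.6, 33.9, 38.1 and 36.7 CPM in control, 30.1, 27.9, 21.4 and 22.02 CPM in BAF155 cKO cortex and at 23.4, 19.1, 21.4 and 17.9 CPM where labelled Pax6 cKO. Here BAF155 cKO replicate 1 lay above control replicate 1, and the labelled Pax6 cKO libraries did not overlap the controls. Lamb2 fell in both, with log2 fold changes of −0.44 (SE 0.13, adjusted p = 0.031) in BAF155 cKO cortex and −0.75 (SE 0.13, adjusted p = 0.000593) in cortex labelled Pax6 cKO. The Lamb2 call in BAF155 cKO cortex was lost on leaving out BAF155 cKO replicate 3 (adjusted p = 0.0707) or 4 (0.104), or control replicate 3 (0.0947) or 4 (0.081). Lamc1 (ENSMUSG00000026478, mm10 chr1:153218922-153332786, minus strand) encodes the gamma chain of nearly all laminins. Lamc1 was measured at 73.1, 71.8, 85.1 and 85.8 CPM in control, 52.03, 66.96, 59.04 and 49.3 CPM in BAF155 cKO cortex and 43.5, 42.2, 42.95 and 40.5 CPM in cortex labelled Pax6 cKO. The values form 3 steps, with control highest, BAF155 cKO between and the libraries labelled Pax6 cKO lowest, and none of the 3 groups overlap. Lamc1 fell in both, with log2 fold changes of −0.47 (SE 0.10, adjusted p = 0.0059) in BAF155 cKO cortex and −0.90 (SE 0.10, adjusted p = 1.59e-05) in cortex labelled Pax6 cKO. Lamc3 was not called in either comparison, with log2 fold changes of −0.19 in both. Lamb3, the beta chain of the epithelial laminin, was the only laminin gene called higher in either comparison with TMM scaling alone, and it was scarce, with 244 reads over the 12 libraries. Control libraries held Lamb3 at 0.529, 0.521, 0.677 and 0.621 CPM, BAF155 cKO libraries 1.01, 1.11, 0.951 and 1.72 CPM and libraries labelled Pax6 cKO 1.02, 0.691, 0.914 and 0.655 CPM. The BAF155 cKO values lay above the controls, with replicate 4 the highest. Lamb3 rose in BAF155 cKO cortex, at 1.01 (SE 0.26, adjusted p = 0.0215) on the log2 scale, and was not called in cortex labelled Pax6 cKO, at 0.50 (SE 0.27, adjusted p = 0.15). With offsets for GC content and gene length, Lama3 was also called higher in cortex labelled Pax6 cKO (log2 fold change 0.88, adjusted p = 0.0336). Without BAF155 cKO replicate 4 the Lamb3 call was lost (log2 fold change 0.81, adjusted p = 0.0837). Summed over the 11 genes, laminin transcripts came to 240.1 ± 26.0 CPM in control, 167 ± 16.5 CPM in BAF155 cKO cortex and 148 ± 5.39 CPM in cortex labelled Pax6 cKO.

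**Figure D2:**
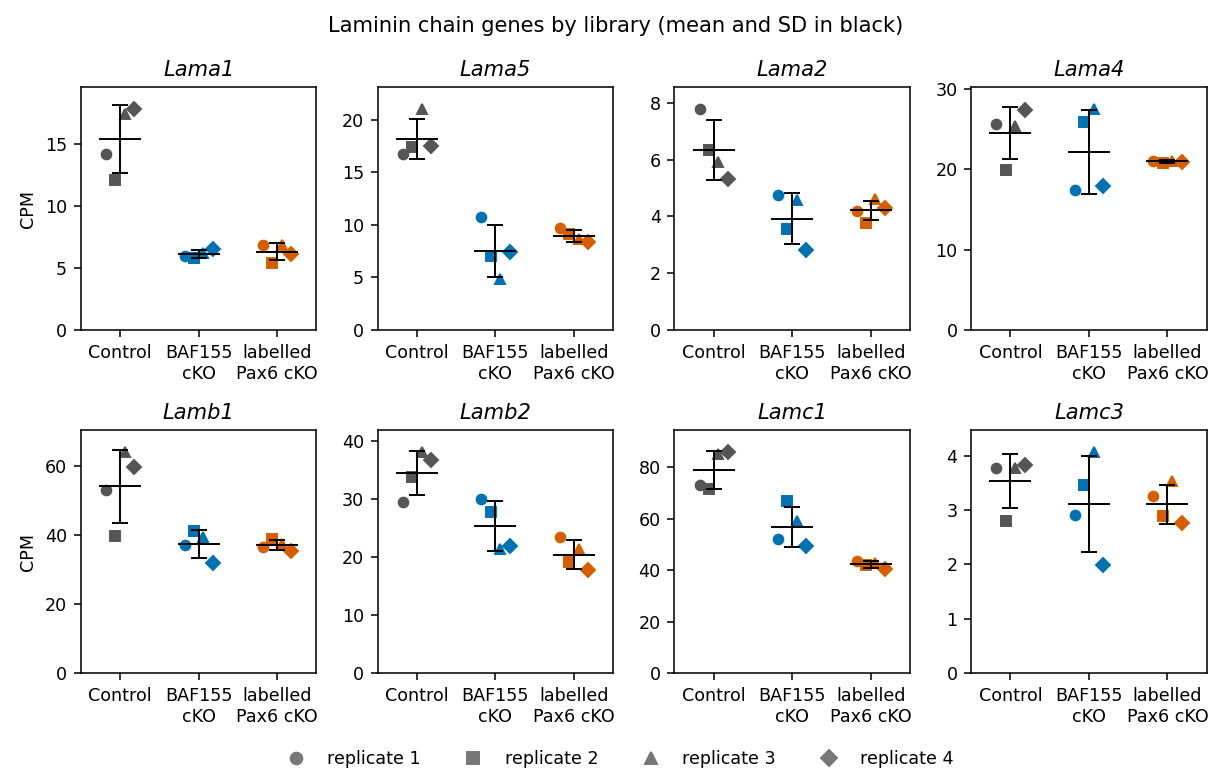
CPM (y axis, from 0) of 8 laminin chain genes in each of the 12 libraries (points, shaped by replicate number) with the group mean and SD in black. Lama1, Lama5, Lama2 and Lamc1 show no overlap between control and either cKO group, while Lama4 and Lamc3 overlap.

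All 6 collagen IV genes had lower means in both cKO groups. In the BAF155 cKO 3 of the 6 were called (Col4a4, Col4a5 and Col4a6), and in cortex labelled Pax6 cKO all 6. The shares called over all tested genes were 13.6% and 35.5%. Col4a5 and Col4a6 encode the alpha chains of a network found in the basement membranes of smooth muscle and some epithelia. Col4a6 stood at 5.45, 5.16, 6.19 and 6.12 CPM in control, 2.29, 2.93, 1.90 and 1.98 CPM in BAF155 cKO cortex and at 1.94, 2.15, 2.16 and 2.75 CPM where labelled Pax6 cKO. All 8 cKO values of Col4a6 (ENSMUSG00000031273, mm10 chrX:141165403-141474076, minus strand) were below 3 CPM and all controls above 5 CPM. Col4a6 fell in both, with log2 fold changes of −1.31 (SE 0.17, adjusted p = 0.000123) in BAF155 cKO cortex and −1.35 (SE 0.16, adjusted p = 4.35e-05) in cortex labelled Pax6 cKO. Col4a5 was measured at 23.8, 18.7, 23.4 and 23.4 CPM in control, 13.4, 17.2, 13.6 and 13.6 CPM in BAF155 cKO cortex and 14.3, 12.1, 13.8 and 14.3 CPM in cortex labelled Pax6 cKO. For Col4a5, too, no cKO library reached the controls, where replicate 2 was the lowest. Col4a5 fell in both, with log2 fold changes of −0.62 (SE 0.11, adjusted p = 0.00231) in BAF155 cKO cortex and −0.71 (SE 0.11, adjusted p = 0.000416) in cortex labelled Pax6 cKO. Col4a3 and Col4a4, with Col4a5, encode the network of the kidney filter and are scarce in cortex. Control libraries held Col4a4 at 3.34, 4.97, 3.24 and 2.72 CPM, BAF155 cKO libraries 1.59, 1.57, 1.52 and 2.30 CPM and libraries labelled Pax6 cKO 2.05, 0.934, 1.77 and 1.62 CPM. Control replicate 2 was the highest, and the groups did not overlap. Col4a4 fell in both, with log2 fold changes of −1.04 (SE 0.25, adjusted p = 0.0128) in BAF155 cKO cortex and −1.15 (SE 0.24, adjusted p = 0.00277) in cortex labelled Pax6 cKO. Col4a3 stood at 0.661, 0.426, 0.532 and 0.621 CPM in control, 0.272, 0.464, 0.381 and 0.255 CPM in BAF155 cKO cortex and at 0.212, 0.325, 0.152 and 0.131 CPM where labelled Pax6 cKO. These Col4a3 values rest on 105 reads over the 12 libraries, and the BAF155 cKO overlapped the controls. Col4a3 fell in cortex labelled Pax6 cKO, at −1.45 (SE 0.34, adjusted p = 0.00524) on the log2 scale, and was not called in BAF155 cKO cortex, at −0.69 (SE 0.33, adjusted p = 0.158).

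Col4a1 (ENSMUSG00000031502, mm10 chr8:11198423-11312826, minus strand) and Col4a2, the chains of the collagen IV of nearly all basement membranes, varied between libraries of the BAF155 cKO. Col4a1 was measured at 130.0, 99.97, 160.1 and 164 CPM in control, 90.4, 159, 127 and 80.1 CPM in BAF155 cKO cortex and 94.3, 100.1, 90.8 and 88.7 CPM in cortex labelled Pax6 cKO. BAF155 cKO replicates 2 and 3 fell among the controls and replicates 1 and 4 below all of them, and labelled Pax6 cKO replicate 2 lay just above control replicate 2. Col4a1 fell in cortex labelled Pax6 cKO, at −0.57 (SE 0.19, adjusted p = 0.0292) on the log2 scale, and was not called in BAF155 cKO cortex, at −0.28 (SE 0.19, adjusted p = 0.31). Control libraries held Col4a2 at 72.02, 61.0, 93.3 and 93.2 CPM, BAF155 cKO libraries 49.4, 78.6, 67.7 and 48.4 CPM and libraries labelled Pax6 cKO 57.5, 56.9, 53.03 and 45.9 CPM. The same order of BAF155 cKO replicates was seen for Col4a2, and no labelled Pax6 cKO library reached the controls. Col4a2 fell in cortex labelled Pax6 cKO, at −0.58 (SE 0.16, adjusted p = 0.0124) on the log2 scale, and was not called in BAF155 cKO cortex, at −0.39 (SE 0.16, adjusted p = 0.114). The Col4a1 call in the labelled Pax6 cKO libraries was lost on leaving out control replicate 3 (adjusted p = 0.0974) or 4 (0.0922), or labelled replicate 1 (0.0582), 3 (0.0705) or 4 (0.0693). With offsets for GC content and gene length neither Col4a1 (adjusted p = 0.128) nor Col4a2 (0.0573) was called there. Markers of endothelial cells, which make the basement membrane of vessels, are given beside these values: summed over 13 genes, BAF155 cKO replicates 1 to 4 held 164, 246, 237 and 191 CPM, against 192 to 231 CPM in control and 219 to 243 CPM in cortex labelled Pax6 cKO. The 2 BAF155 cKO libraries high in Col4a1, Col4a2 and Lama4 were those high in endothelial markers, and their part in the result was not tested. Col4a2 and Col4a3 were chosen for these values after they were seen.

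**Figure D3:**
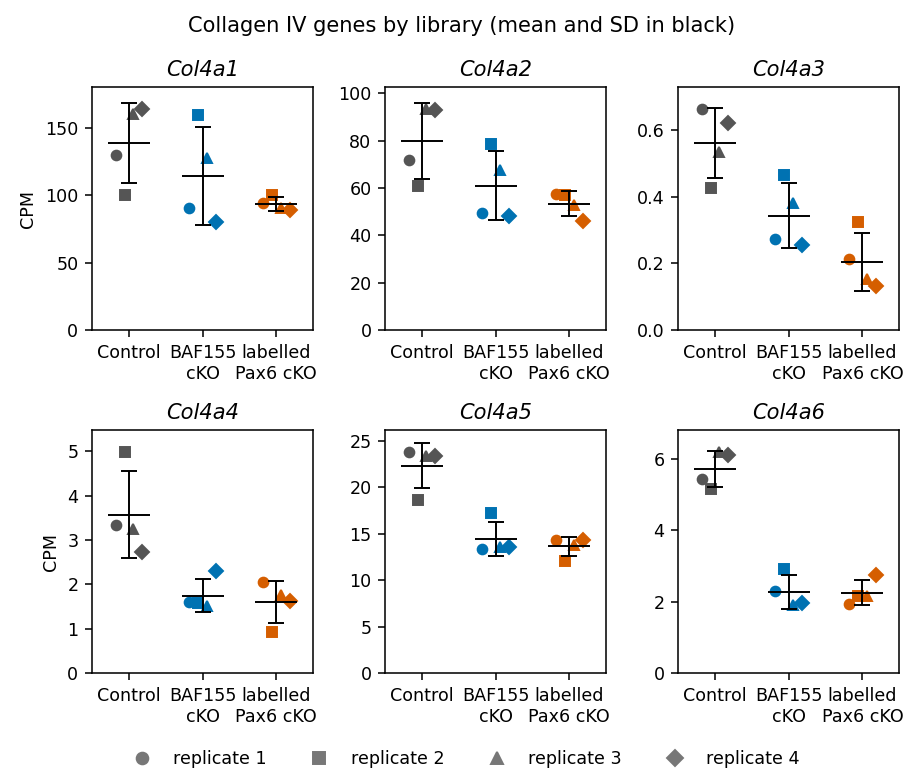
CPM (y axis, from 0) of the 6 collagen IV genes in each of the 12 libraries, with the group mean and SD in black. Col4a6, Col4a5 and Col4a4 show no overlap of either cKO group with control, while in Col4a1 and Col4a2 BAF155 cKO replicates 2 and 3 lie among the controls.

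Of the 11 fibrillar collagen genes, edgeR called 0 in BAF155 cKO cortex, where 3 were lower and 1 higher at an unadjusted p under 0.05 and DESeq2 called 1 lower. In the libraries labelled Pax6 cKO 2 fell. The shares called by edgeR were 0% and 18.2%, where those of all tested genes were 13.6% and 35.5%. Col2a1, the collagen of cartilage that neuroepithelium also expresses, was the fibrillar gene of highest RPKM in control. Col2a1 stood at 41.1, 38.7, 66.8 and 65.4 CPM in control, 43.6, 31.5, 24.2 and 36.0 CPM in BAF155 cKO cortex and at 33.98, 22.8, 27.3 and 21.3 CPM where labelled Pax6 cKO. Labelled Pax6 cKO values all lay below the controls, and BAF155 cKO replicate 1 lay among the controls. Col2a1 fell in cortex labelled Pax6 cKO, at −1.01 (SE 0.21, adjusted p = 0.00279) on the log2 scale, and was not called in BAF155 cKO cortex, at −0.64 (SE 0.21, adjusted p = 0.0524). Col5a2, a chain of the thin fibres of collagen V, fell in the same comparison and was chosen for mention after its values were seen. Col5a2 was measured at 23.4, 23.7, 32.2 and 35.5 CPM in control, 28.5, 27.3, 20.99 and 25.3 CPM in BAF155 cKO cortex and 22.7, 15.2, 21.1 and 19.1 CPM in cortex labelled Pax6 cKO. BAF155 cKO and control overlapped, and labelled Pax6 cKO values lay just below the controls. Col5a2 fell in cortex labelled Pax6 cKO, at −0.55 (SE 0.15, adjusted p = 0.0119) on the log2 scale, and was not called in BAF155 cKO cortex, at −0.16 (SE 0.15, adjusted p = 0.466). The median log2 fold change of the 11 genes was −0.02 in BAF155 cKO cortex and −0.10 in cortex labelled Pax6 cKO, and with offsets for GC content and gene length its sign turned, to 0.12 and 0.20.

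FACIT collagens coat fibres and do not form fibres themselves. Of 9 genes, 5 fell in BAF155 cKO cortex, and 4 fell and 2 rose in cortex labelled Pax6 cKO. That is 55.6% and 66.7% called, where 13.6% and 35.5% of all tested genes were called. Col22a1 (ENSMUSG00000079022, mm10 chr15:71795795-72034227, minus strand) encodes a FACIT of tissue junctions such as that of muscle and tendon. Control libraries held Col22a1 at 16.7, 19.3, 17.1 and 18.1 CPM, BAF155 cKO libraries 9.40, 14.7, 12.5 and 10.9 CPM and libraries labelled Pax6 cKO 6.50, 4.10, 6.83 and 5.41 CPM. As for Lamc1 the 3 groups did not overlap and the labelled Pax6 cKO was the lowest. Col22a1 fell in both, with log2 fold changes of −0.58 (SE 0.16, adjusted p = 0.024) in BAF155 cKO cortex and −1.63 (SE 0.16, adjusted p = 5.68e-06) in cortex labelled Pax6 cKO. The Col22a1 call in BAF155 cKO cortex was lost without BAF155 cKO replicate 1 (adjusted p = 0.0738) or 4 (0.0778) or control replicate 2 (0.0581) or 4 (0.0552). Col16a1 encodes a FACIT found near fibroblasts and basement membranes. Col16a1 stood at 6.31, 7.25, 10.01 and 6.69 CPM in control, 3.92, 2.25, 2.85 and 3.26 CPM in BAF155 cKO cortex and at 4.31, 3.33, 3.96 and 3.01 CPM where labelled Pax6 cKO. Both cKO groups lay wholly below the controls. Col16a1 fell in both, with log2 fold changes of −1.30 (SE 0.20, adjusted p = 0.000511) in BAF155 cKO cortex and −1.04 (SE 0.19, adjusted p = 0.00116) in cortex labelled Pax6 cKO. Col9a1 encodes a chain of collagen IX, the FACIT of cartilage and the eye. Col9a1 was measured at 2.38, 1.75, 2.85 and 1.77 CPM in control, 1.01, 0.999, 0.825 and 0.383 CPM in BAF155 cKO cortex and 1.13, 1.38, 1.31 and 0.786 CPM in cortex labelled Pax6 cKO. Again the cKO values lay below the controls, at about 1 CPM. Col9a1 fell in both, with log2 fold changes of −1.39 (SE 0.28, adjusted p = 0.00438) in BAF155 cKO cortex and −0.92 (SE 0.26, adjusted p = 0.0132) in cortex labelled Pax6 cKO. In the labelled Pax6 cKO the Col9a1 call was lost without control replicate 3 (adjusted p = 0.0526). Col14a1 encodes a FACIT of collagen-rich connective tissue. Control libraries held Col14a1 at 1.95, 1.66, 3.05 and 2.72 CPM, BAF155 cKO libraries 0.621, 1.54, 1.08 and 1.34 CPM and libraries labelled Pax6 cKO 0.989, 0.894, 1.07 and 0.786 CPM. No cKO library overlapped the controls. Col14a1 fell in both, with log2 fold changes of −1.03 (SE 0.27, adjusted p = 0.0223) in BAF155 cKO cortex and −1.31 (SE 0.27, adjusted p = 0.00243) in cortex labelled Pax6 cKO. Its call in BAF155 cKO cortex was lost without BAF155 cKO replicate 1 (adjusted p = 0.0621) or control replicate 3 (0.0761) or 4 (0.0626).

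Other FACIT genes were called in 1 comparison. Col12a1 (ENSMUSG00000032332, mm10 chr9:79598991-79718831, minus strand) encodes a large FACIT of dense connective tissue. Col12a1 stood at 35.99, 31.97, 19.97 and 19.2 CPM in control, 15.96, 12.2, 10.6 and 12.2 CPM in BAF155 cKO cortex and at 29.7, 24.2, 28.4 and 24.9 CPM where labelled Pax6 cKO. BAF155 cKO values lay below all others, and the controls split, with replicates 1 and 2 above 30 CPM and 3 and 4 below 20 CPM. Col12a1 fell in BAF155 cKO cortex, at −1.07 (SE 0.19, adjusted p = 0.00184) on the log2 scale, and was not called in cortex labelled Pax6 cKO, at 0.00 (SE 0.18, adjusted p = 0.989). Control replicates 3 and 4 are the controls with high Xist counts, though below those of the BAF155 cKO libraries. Against these 2 alone, Col12a1 stayed lower but by less (log2 fold change −0.63, adjusted p = 0.00871). Col9a3, another chain of collagen IX and the FACIT gene of highest RPKM in control, rose where Col9a1 fell. Col9a3 was measured at 31.1, 24.1, 22.9 and 21.5 CPM in control, 32.9, 17.5, 21.4 and 31.7 CPM in BAF155 cKO cortex and 52.5, 38.6, 44.8 and 36.1 CPM in cortex labelled Pax6 cKO. The labelled Pax6 cKO libraries lay above all controls, and BAF155 cKO replicates 1 and 4 above replicates 2 and 3. Col9a3 rose in cortex labelled Pax6 cKO, at 0.79 (SE 0.18, adjusted p = 0.00515) on the log2 scale, and was not called in BAF155 cKO cortex, at 0.05 (SE 0.19, adjusted p = 0.864). Exons of Tcfl5 on the other strand overlap Col9a3, and reads of both genes cannot be told apart there. Col9a2, the third chain, was not called (log2 fold changes 0.23, adjusted p = 0.529, and 0.31, adjusted p = 0.336). Col20a1, a little-studied FACIT, had about 1 to 3 CPM. Control libraries held Col20a1 at 2.15, 1.18, 0.822 and 1.05 CPM, BAF155 cKO libraries 1.13, 1.36, 1.33 and 1.21 CPM and libraries labelled Pax6 cKO 1.98, 2.32, 2.59 and 2.05 CPM. Control replicate 1 overlapped the labelled Pax6 cKO libraries. Col20a1 rose in cortex labelled Pax6 cKO, at 0.75 (SE 0.25, adjusted p = 0.0282) on the log2 scale, and was not called in BAF155 cKO cortex, at −0.09 (SE 0.26, adjusted p = 0.835). The Col20a1 call was lost without control replicate 2 (adjusted p = 0.0653), 3 (0.0936) or 4 (0.0864) or labelled Pax6 cKO replicate 2 (0.0531) or 3 (0.0855).

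Of 10 tested collagens of beaded filaments, networks and anchoring fibrils, 1 rose in BAF155 cKO cortex and 3 in cortex labelled Pax6 cKO. That is 10% and 30% called, where 13.6% and 35.5% of all tested genes were called, 6.04% and 16.6% higher. Those called lower were 0 in both by edgeR and by DESeq2, with 1 and 0 lower at an unadjusted p under 0.05. The 4 genes called were scarce. Col6a1 and Col6a2 encode chains of collagen VI, which forms beaded filaments around cells. Col6a1 stood at 0.628, 1.33, 0.629 and 0.573 CPM in control, 0.971, 0.571, 0.761 and 1.15 CPM in BAF155 cKO cortex and at 1.17, 1.75, 1.37 and 1.27 CPM where labelled Pax6 cKO. Control replicate 2 stood apart from the other controls, among the labelled Pax6 cKO values. Col6a1 rose in cortex labelled Pax6 cKO, at 0.82 (SE 0.29, adjusted p = 0.0393) on the log2 scale, and was not called in BAF155 cKO cortex, at 0.12 (SE 0.32, adjusted p = 0.816). Col6a2 was measured at 1.79, 1.75, 1.64 and 1.62 CPM in control, 1.40, 1.54, 2.03 and 2.36 CPM in BAF155 cKO cortex and 2.90, 2.40, 2.44 and 2.05 CPM in cortex labelled Pax6 cKO. The 4 controls lay close together and all labelled Pax6 cKO libraries lay above them. Col6a2 rose in cortex labelled Pax6 cKO, at 0.52 (SE 0.19, adjusted p = 0.0419) on the log2 scale, and was not called in BAF155 cKO cortex, at 0.07 (SE 0.20, adjusted p = 0.813). The Col6a1 call was lost without control replicate 1 (adjusted p = 0.096), 3 (0.107) or 4 (0.113) or labelled Pax6 cKO replicate 2 (0.0998), 3 (0.0773) or 4 (0.0597). The Col6a2 call was lost without any control (adjusted p = 0.0637, 0.07, 0.0962 and 0.0971 for replicates 1 to 4), without labelled Pax6 cKO replicate 1 (0.129), 2 (0.0618) or 3 (0.0843), or without BAF155 cKO replicate 3 (0.0522). Col6a3, the large chain that joins them, was not called (log2 fold changes −0.08, adjusted p = 0.852, and 0.01, adjusted p = 0.973). Col6a4 and Col6a5 encode chains related to that of Col6a3. Control libraries held Col6a4 at 0.463, 0.474, 0.242 and 0.382 CPM, BAF155 cKO libraries 0.699, 0.357, 1.14 and 0.958 CPM and libraries labelled Pax6 cKO 1.59, 0.772, 1.07 and 0.655 CPM. Labelled Pax6 cKO values lay above the controls, from 212 reads in all libraries. Col6a4 rose in cortex labelled Pax6 cKO, at 1.38 (SE 0.38, adjusted p = 0.0119) on the log2 scale, and was not called in BAF155 cKO cortex, at 0.91 (SE 0.41, adjusted p = 0.134). Col6a5 stood at 0.430, 0.758, 0.629 and 0.764 CPM in control, 1.48, 1.07, 1.08 and 1.66 CPM in BAF155 cKO cortex and at 0.918, 0.650, 0.945 and 0.961 CPM where labelled Pax6 cKO. BAF155 cKO values of Col6a5 lay above all others, from 264 reads in all libraries. Col6a5 rose in BAF155 cKO cortex, at 1.05 (SE 0.26, adjusted p = 0.0169) on the log2 scale, and was not called in cortex labelled Pax6 cKO, at 0.46 (SE 0.26, adjusted p = 0.188). Without BAF155 cKO replicate 4 the Col6a5 call was lost (log2 fold change 0.86, adjusted p = 0.0607). In that library albumin (Alb), made in liver, was at 156.5 CPM, against 25.9 CPM in BAF155 cKO replicate 3, at most 1.11 CPM in the other BAF155 cKO libraries and at most 0.141 CPM in control and labelled Pax6 cKO libraries. The part of liver transcripts in the Col6a5 and Lamb3 results was not tested. Col26a1, the gene of highest RPKM in this group, was not called (0.29, adjusted p = 0.231, and 0.13, adjusted p = 0.55).

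Among transmembrane collagens, which stand in the cell membrane and can be shed, Col23a1 fell in both comparisons. Col23a1 was measured at 7.97, 6.77, 6.87 and 5.69 CPM in control, 4.85, 4.35, 5.58 and 4.15 CPM in BAF155 cKO cortex and 5.72, 5.57, 5.12 and 4.72 CPM in cortex labelled Pax6 cKO. BAF155 cKO values lay below the controls, and labelled Pax6 cKO replicate 1 just above control replicate 4. Col23a1 fell in both, with log2 fold changes of −0.53 (SE 0.14, adjusted p = 0.0223) in BAF155 cKO cortex and −0.37 (SE 0.14, adjusted p = 0.0448) in cortex labelled Pax6 cKO. Its call in BAF155 cKO cortex was lost without BAF155 cKO replicate 4 (adjusted p = 0.0798) or control replicate 3 (0.0511). In the labelled Pax6 cKO it was lost without control replicate 1 (0.0976), 2 (0.0566) or 3 (0.0886) or without labelled replicate 1 (0.0587), 2 (0.0575), 3 (0.105) or 4 (0.115). Col25a1, a transmembrane collagen of neurons, varied within groups, from 3.24 to 10.8 CPM in control and from 4.04 to 14.3 CPM in BAF155 cKO cortex, and was not called. Neither multiplexin gene was called by edgeR or DESeq2, nor passed an unadjusted p of 0.05. Col18a1, the basement membrane collagen that releases endostatin, had log2 fold changes of 0.16 (adjusted p = 0.568) and −0.21 (adjusted p = 0.379), and Col15a1 of −0.17 (adjusted p = 0.615) and 0.17 (adjusted p = 0.56).

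Of the integrin genes, the receptor side, 3 of 19 tested fell in BAF155 cKO cortex and 4 in cortex labelled Pax6 cKO. That is 15.8% and 21.1% called, where 13.6% and 35.5% of all tested genes were, a share near that of all genes in the first comparison and below it in the second. By edgeR 0 rose, with 2 higher in each comparison at an unadjusted p under 0.05 and 0 and 1 called higher by DESeq2. With offsets for GC content and gene length 2 fell in the first comparison, and 2 rose (Itga10 and Itga2b) and 3 fell in the second. The median log2 fold change was −0.08 and −0.16, and that of the 11 laminin genes −0.44 and −0.59, a difference that was not tested. Itgav (ENSMUSG00000027087, mm10 chr2:83724397-83806916, plus strand) encodes the alpha subunit of receptors for vitronectin and latent TGF-beta. Control libraries held Itgav at 22.7, 26.6, 28.9 and 25.5 CPM, BAF155 cKO libraries 17.3, 21.99, 16.1 and 19.7 CPM and libraries labelled Pax6 cKO 16.7, 16.9, 17.5 and 15.1 CPM. Both cKO groups lay wholly below the controls. Itgav fell in both, with log2 fold changes of −0.46 (SE 0.11, adjusted p = 0.0126) in BAF155 cKO cortex and −0.65 (SE 0.11, adjusted p = 0.000666) in cortex labelled Pax6 cKO. Itga5, the alpha subunit of the fibronectin receptor, was the gene of highest RPKM among the integrin alphas that bind the RGD motif. Itga5 stood at 11.6, 12.4, 13.3 and 14.6 CPM in control, 9.32, 11.6, 9.70 and 8.36 CPM in BAF155 cKO cortex and at 7.95, 8.41, 8.53 and 9.04 CPM where labelled Pax6 cKO. Control replicate 1 and BAF155 cKO replicate 2 were nearly level, and the labelled Pax6 cKO libraries lay clear below. Itga5 fell in both, with log2 fold changes of −0.41 (SE 0.12, adjusted p = 0.0338) in BAF155 cKO cortex and −0.61 (SE 0.12, adjusted p = 0.00163) in cortex labelled Pax6 cKO. Its call in BAF155 cKO cortex was lost without BAF155 cKO replicate 1 (adjusted p = 0.0845), 3 (0.0589) or 4 (0.118), control replicate 3 (0.0861) or 4 (0.108), or labelled Pax6 cKO replicate 3 (0.0511). Itga4, the alpha subunit of a receptor for fibronectin and a vascular adhesion molecule, overlaps exons of Cerkl on the other strand. Itga4 was measured at 14.2, 11.6, 11.3 and 13.04 CPM in control, 8.62, 10.96, 8.69 and 7.98 CPM in BAF155 cKO cortex and 8.44, 7.15, 7.35 and 10.7 CPM in cortex labelled Pax6 cKO. Both cKO groups lay below the controls by a small margin. Itga4 fell in both, with log2 fold changes of −0.46 (SE 0.15, adjusted p = 0.0463) in BAF155 cKO cortex and −0.58 (SE 0.14, adjusted p = 0.00704) in cortex labelled Pax6 cKO. In the BAF155 cKO its call was lost without BAF155 cKO replicate 1 (adjusted p = 0.11), 3 (0.0789) or 4 (0.142), any control (0.076, 0.0546, 0.0635 and 0.106 for replicates 1 to 4), or labelled Pax6 cKO replicate 1 (0.0618) or 3 (0.0577).

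Of the 3 laminin-binding alpha subunits, edgeR called 0 in BAF155 cKO cortex (2 lower at an unadjusted p under 0.05, 1 lower by DESeq2) and 1 in cortex labelled Pax6 cKO. Itga6, the laminin-binding alpha subunit found on radial glia, had the highest RPKM of the integrin alphas. Control libraries held Itga6 at 71.9, 68.5, 78.2 and 84.6 CPM, BAF155 cKO libraries 58.6, 71.2, 61.5 and 62.2 CPM and libraries labelled Pax6 cKO 57.8, 61.1, 64.1 and 63.6 CPM. BAF155 cKO replicate 2 lay above control replicate 2, and labelled Pax6 cKO values lay below all controls. Itga6 fell in cortex labelled Pax6 cKO, at −0.30 (SE 0.09, adjusted p = 0.0145) on the log2 scale, and was not called in BAF155 cKO cortex, at −0.26 (SE 0.09, adjusted p = 0.0575). Without control replicate 4 the Itga6 call was lost (adjusted p = 0.0604), as it was with offsets for GC content and gene length (0.213). Itga3, the other main laminin-binding alpha subunit of cortex, was not called (log2 fold changes 0.01, adjusted p = 0.981, and 0.05, adjusted p = 0.77), nor was Itga7 (−0.46, adjusted p = 0.125, and −0.16, adjusted p = 0.524). Itgb1 was measured at 221, 194, 203 and 215 CPM in control, 170, 213, 209 and 205 CPM in BAF155 cKO cortex and 198, 222, 208 and 227 CPM in cortex labelled Pax6 cKO. The 3 groups overlapped, and its log2 fold changes were −0.07 (SE 0.09, adjusted p = 0.611) and 0.04 (SE 0.09, adjusted p = 0.765). No other integrin beta was called by edgeR or DESeq2, and none passed an unadjusted p of 0.05: Itgb8 and Itgb5, partners of Itgav, had log2 fold changes of 0.03 and −0.05 in BAF155 cKO cortex and of −0.14 and −0.16 in cortex labelled Pax6 cKO. Of the 4 collagen-binding alpha subunits 0 were called by edgeR, with 1 in the first and 2 in the second comparison at an unadjusted p under 0.05, and 0 and 1 by DESeq2. Itga10, the one of highest RPKM, had log2 fold changes of 0.47 (adjusted p = 0.135) and 0.55 (adjusted p = 0.0503).

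The direct test of BAF155 cKO against the libraries labelled Pax6 cKO takes the difference between these groups only. Xist was at 1811 CPM or more in BAF155 cKO libraries and at most 2.93 CPM in libraries labelled Pax6 cKO. Group and Xist level therefore cannot be told apart in this test. Its filter, scaling and estimate of spread used all 12 libraries, controls included. It called 5 of the 70 members, 2 higher and 3 lower in BAF155 cKO cortex, or 7.14%, where 4.31% of all tested genes were called, 2.3% higher and 2.01% lower. The cKO groups did not overlap in 9 members, 4 higher and 5 lower in BAF155 cKO cortex, as in 15.3% of all genes (7.5% higher, 7.83% lower). Col22a1, given above, was higher in all 4 BAF155 cKO libraries than in any labelled Pax6 cKO library (log2 fold change 1.05, SE 0.16, adjusted p = 0.00236). Lamc1 was also higher, by 0.43 on the log2 scale (SE 0.10, adjusted p = 0.0248). The Lamc1 difference was lost without any 1 of the 4 labelled Pax6 cKO libraries (adjusted p = 0.0528, 0.066, 0.0686 and 0.0792 for replicates 1 to 4) or without BAF155 cKO replicate 2 (0.0741) or 3 (0.0631). Col12a1 was lower, by −1.07 (SE 0.19, adjusted p = 0.00515), with no overlap. All libraries labelled Pax6 cKO are of lane 1. With BAF155 cKO libraries of lane 1 alone, Col12a1 was not called (−0.92, adjusted p = 0.064). Of the 3 lower calls 0 were made again there, and of the 2 higher calls 2. With BAF155 cKO libraries of lane 3 alone Col12a1 was called (−1.23, adjusted p = 0.0234). Col9a3 was lower by −0.74 (SE 0.19, adjusted p = 0.0359), also with no overlap. Its call was lost without BAF155 cKO replicate 2 (0.0835) or 3 (0.0942) or without any labelled Pax6 cKO library (adjusted p = 0.107, 0.0642, 0.1 and 0.0529 for replicates 1 to 4). Col8a2, a network collagen of the cornea, was lower by −2.03 (SE 0.52, adjusted p = 0.0375) on 98 reads in all. Col8a2 stood at 0.496, 0.237, 0.484 and 0.239 CPM in control, 0.155, 0.107, 0.127 and 0.0638 CPM in BAF155 cKO cortex and at 0.247, 0.934, 0.396 and 0.437 CPM where labelled Pax6 cKO. The highest labelled Pax6 cKO value was more than 2 times the next, and the 2 cKO groups did not overlap. The Col8a2 call was lost without any BAF155 cKO library (adjusted p = 0.0689, 0.0983, 0.0747 and 0.0618) or without labelled Pax6 cKO replicate 2 (0.106), 3 (0.0679) or 4 (0.0746). The other 65 members, among them all 6 collagen IV and all 19 tested integrin genes, did not pass in this test, which does not show that they were equal.

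**Figure D4:**
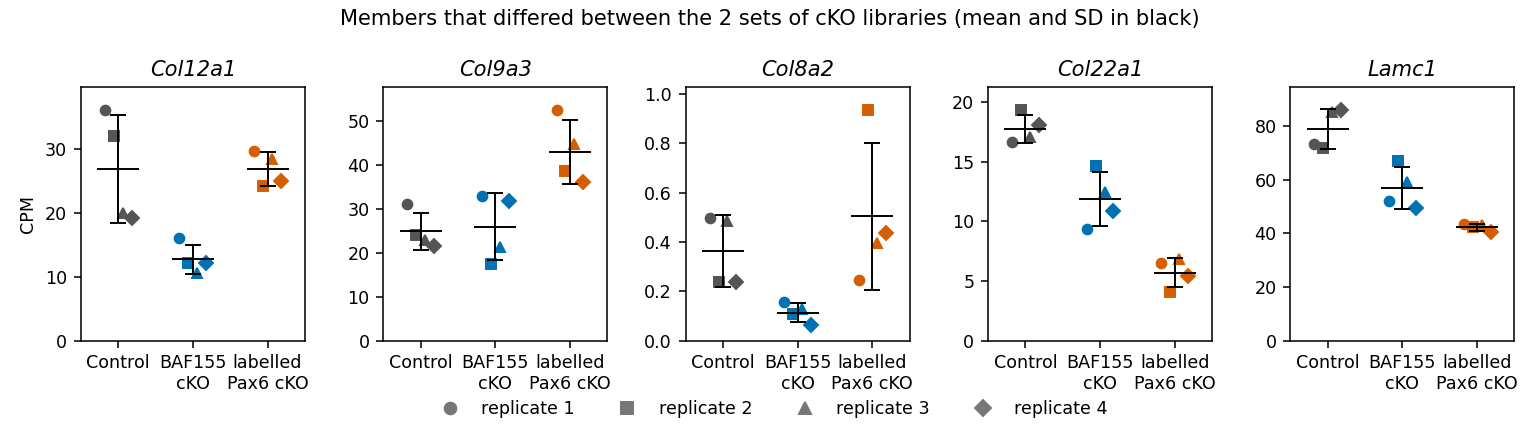
CPM (y axis, from 0) in each of the 12 libraries of the 5 members that differed between BAF155 cKO and the libraries labelled Pax6 cKO, with the group mean and SD in black. Col12a1, Col9a3 and Col8a2 are lower in BAF155 cKO cortex, and Col22a1 and Lamc1 lie between control and the labelled Pax6 cKO.

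Xist counts and lane move with the groups. Each comparison with control was therefore repeated on the controls chosen to match, and each comparison with BAF155 cKO on its libraries of 1 lane. The cKO groups could not be matched to each other, since Xist was at most 2.93 CPM in libraries labelled Pax6 cKO. The comparison of libraries labelled Pax6 cKO with control, lane 1 against lane 8, had no lane check. For BAF155 cKO cortex the match is partial. Xist was at 963.5 and 964.3 CPM in control replicates 3 and 4 and at 1811 CPM or more in BAF155 cKO libraries. Against control replicates 3 and 4 alone, 14 of the 18 members that fell in BAF155 cKO cortex were called again and 4 were not: Col4a4 (adjusted p = 0.0503), Lama2 (0.0608), Col23a1 (0.0703) and Itga4 (0.0858). Neither Col6a5 (0.0537) nor Lamb3 (0.0874) was. Against control replicates 1 and 2 alone, 13 of the 23 members that fell in cortex labelled Pax6 cKO were called again and 0 of the 5 that rose. The log2 fold changes of those 5 were 1.13 for Col6a4, 0.63 for Col9a3, 0.54 for Col6a1, 0.47 for Col6a2 and 0.40 for Col20a1, where all 4 controls gave 1.38, 0.79, 0.82, 0.52 and 0.745, in that order. The 10 that were not included Col4a1 (log2 fold change −0.30, adjusted p = 0.43), Col4a2 (−0.32, 0.271), Col4a3 (−1.43, 0.0589), Col2a1 (−0.60, 0.0882), Col5a2 (−0.27, 0.284) and Lamb1 (−0.33, 0.113). Lama1 (−1.06, adjusted p = 0.000244), Lamc1 (−0.78, 0.000435), Col4a6 (−1.24, 0.00133) and Col22a1 (−1.65, 8.81e-05) were called. With BAF155 cKO replicates 1 and 2 alone, those of lane 1, 4 of the 18 lower calls were made again (Lama1, Lama5, Col4a6 and Col16a1), and with replicates 3 and 4 alone 15. The 14 lower members not called again in lane 1 kept log2 fold changes of −1.16 (Col4a4) to −0.24 (Lamb2). Among them Col4a4, Col23a1 (−0.56) and Col22a1 (−0.55) were close to their values over all 4 libraries (−1.04, −0.53 and −0.58), so a lost call on 2 libraries does not show that the fall was absent. With offsets for GC content and gene length, Col22a1 (adjusted p = 0.057) and Itga5 (0.0725) were not called in BAF155 cKO cortex. In the libraries labelled Pax6 cKO, Col4a1, Col4a2, Col5a2 (0.0705), Col23a1 (0.133), Itga6 and Lama2 (0.136) were not called under the same offsets, and the median log2 fold change of the collagen genes turned from −0.10 to 0.14 while that of the laminin genes was −0.34.

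**Figure D5:**
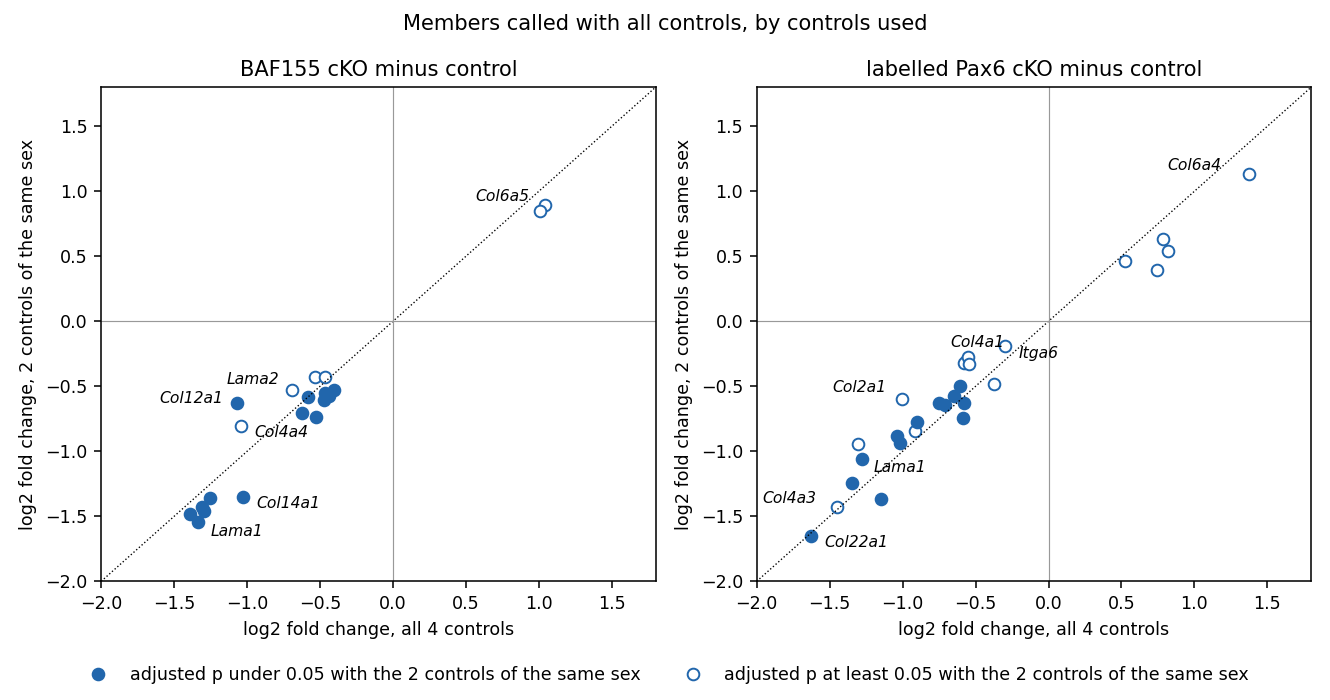
Log2 fold change of the members called against all 4 controls (x axis) and against only the 2 controls chosen to match on Xist counts (y axis). The drawn labels call these controls of the same sex, though for BAF155 cKO the match on Xist is partial. The line of equal values is dotted. Filled points, 14 on the left and 13 on the right, were called again, and every point kept its sign.

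The other genes of the pathway were taken from 8 lists. Over all tested genes 7.56% fell and 6.04% rose in BAF155 cKO cortex, and 18.9% fell and 16.6% rose in cortex labelled Pax6 cKO. Of 21 tested adaptors and kinases that link integrins to the cytoskeleton, 8 fell in BAF155 cKO cortex, and 11 fell and 2 rose in cortex labelled Pax6 cKO (median log2 fold change −0.30 in both). Zyx, which encodes zyxin, was at 42.9 ± 5.57 CPM in control, 26.2 ± 2.69 CPM in BAF155 cKO cortex and 28.3 ± 0.69 CPM in cortex labelled Pax6 cKO, with log2 fold changes of −0.71 (adjusted p = 0.000301) and −0.60 (adjusted p = 0.000586). Vcl, which encodes vinculin, fell by 0.80 (adjusted p = 0.00139) and 1.06 (adjusted p = 7.81e-05) on the log2 scale. Of 14 other basement membrane genes, 1 rose and 2 fell in BAF155 cKO cortex, and 1 rose and 4 fell in the second comparison. Frem2 and Fras1, matrix proteins of the same complex, were the 2 that fell in BAF155 cKO cortex, at −1.07 (adjusted p = 0.000419) and −0.50 (adjusted p = 0.0294), and both fell in the second, at −1.17 (adjusted p = 0.0001) and −0.79 (adjusted p = 0.000967). Nid1, which encodes the nidogen that joins laminin to collagen IV, was not called, at −0.13 (adjusted p = 0.6) and −0.39 (adjusted p = 0.0851), and is named here after its values were seen.

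Further lists are given by the number that passed, beside 13.6% of all tested genes called in the first comparison and 35.5% in the second. Of 20 interstitial matrix glycoproteins, 3 fell in BAF155 cKO cortex, and 2 rose and 3 fell in cortex labelled Pax6 cKO. Among them Tnc, which encodes the radial glial matrix protein tenascin-C, fell by 1.53 (adjusted p = 4.88e-07) and by 1.41 (adjusted p = 7.58e-07) on the log2 scale. Fn1, which encodes fibronectin, the ligand of Itga5, was at −0.03 (adjusted p = 0.87) in the first comparison and fell by 0.94 (adjusted p = 5.39e-05) in the second. Of 22 brain proteoglycans and link proteins, 2 rose and 3 fell in the first comparison, and 4 rose and 7 fell in the second. Of 25 enzymes and chaperones that fold, modify or cross-link collagen, 2 fell, then 2 rose and 7 fell. That is below the share of all genes in the first comparison and near it in the second. Loxl1, a lysyl oxidase, was lower in both (−0.74, adjusted p = 0.0125, and −1.03, adjusted p = 0.000711). Of 19 matrix proteases and inhibitors, 1 rose and 3 fell, then 1 rose and 5 fell. Mmp14, a membrane-bound collagenase, fell by 0.85 (adjusted p = 9.37e-06) and by 0.62 (adjusted p = 0.000114). Of 16 genes for dystroglycan, a laminin receptor, and the enzymes that glycosylate it, 2 rose, then 1 rose and 1 fell. Dag1, which encodes dystroglycan, was at −0.26 (adjusted p = 0.0796) and fell by 0.58 (adjusted p = 0.000537) in the second comparison. Of 7 other laminin and collagen receptors, 1 fell, then 1 rose and 1 fell. The 1 that fell first was Ddr2, a collagen receptor, at −0.73 (adjusted p = 0.00327) and, in the second comparison, 0.04 (adjusted p = 0.825). The median log2 fold change of these 8 lists ran from −0.30 to 0.08 in the first and from −0.30 to 0.04 in the second comparison.

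Markers of cell types in or near the cortex moved as follows, and their part in the results above was not tested. Among all tested genes 6.04% were higher and 7.56% lower in BAF155 cKO cortex, and 16.6% and 18.9% in cortex labelled Pax6 cKO. Of 12 radial glia markers, 1 was higher and 7 lower in BAF155 cKO cortex, and 3 higher and 8 lower in cortex labelled Pax6 cKO. Their summed level was 3481 to 3651 CPM in control, 2721 to 3082 CPM and 3056 to 3263 CPM in the cKO groups. Pax6 itself is on this list and is the 1 marker called higher in BAF155 cKO cortex. It was at 110.2 ± 19.1 CPM in control, 314 ± 40.3 CPM in BAF155 cKO cortex and 389 ± 8.73 CPM where labelled Pax6 cKO. The sums include that rise, so they understate the fall of the other radial glia markers. Of 11 cortical neuron markers, 4 were lower, then 1 higher and 7 lower, and their sum was 9593 to 10620 CPM in control, 7294 to 9176 CPM in BAF155 cKO cortex and 8017 to 9155 CPM in cortex labelled Pax6 cKO. For the radial glia and the neuron markers alike, every cKO library had a lower sum than every control. Of 13 endothelial markers, edgeR and DESeq2 called 0 in BAF155 cKO cortex (2 were higher at an unadjusted p under 0.05), and edgeR called 4 higher in cortex labelled Pax6 cKO. Of 9 pericyte and smooth muscle markers, 1 was lower, then 3 higher and 1 lower. Of 13 meningeal and fibroblast markers 8 were tested, with 2 higher and 1 lower, then 1 and 1, and summed levels of 56.9 to 73.9 CPM in control, 53.2 to 61.96 CPM and 60.4 to 66.2 CPM. Foxc2, Lum, Aldh1a2, Slc6a13 and Twist1, which mark meninges, did not pass the filter and were at 1.15 CPM or less in every library. Of 11 microglia and leukocyte markers, 1 was higher and 1 lower, then 2 higher. Of 9 erythroid markers 1 was higher, then 2. Of the 3 tested markers of cartilage, bone and skin, 1 was higher, then 2. Of 2 tested platelet markers 0 were called by edgeR, by DESeq2 or at an unadjusted p under 0.05. Of 6 choroid plexus markers, edgeR called 0 in BAF155 cKO cortex (1 was higher and 1 lower at an unadjusted p under 0.05, and DESeq2 called 1 lower) and 1 higher in cortex labelled Pax6 cKO, where their sum reached 331 CPM against at most 36.4 CPM in control. Of 4 tested liver markers 2 were higher in BAF155 cKO cortex, then 1. The summed level of the 9 genes on the list was 10.3 to 26.6 CPM in control, 3.50 to 223.5 CPM in BAF155 cKO cortex and 14.2 to 319 CPM in cortex labelled Pax6 cKO. In the last group Ttr, which encodes transthyretin and is also on the choroid plexus list, made up most of the sum, at 12.9, 318.1, 91.2 and 192.7 CPM in replicates 1 to 4.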

How the data were processed

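RNA was extracted from embryonic cortex with RNeasy kits and made into TruSeq v2 libraries, per the labels' protocols. The kit does not mark strand, so reads of overlapping or antisense genes cannot be told apart. The authors deposited whole-number read counts for 48709 genes in each of 12 libraries, with build mm10 named per the submitters' processing notes. Aligner, counter and annotation: not given in the sources used here. Symbols came from GENCODE M21, which matched 48349 of the 48709 identifiers, while 360 had no match (0.0397% of the reads or less).

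The members and the gene lists were chosen with earlier results of these data known. Counts were filtered with filterByExpr (16511 genes), scaled by TMM and tested with edgeR 4.0.16 in R 4.3.3 (robust quasi-likelihood fit over the 12 libraries, 1 coefficient per group), with Benjamini-Hochberg adjustment over all genes and a threshold of 0.05. Each SE was taken as |log2 fold change| over the root of the F statistic. CPM used the TMM-scaled library sizes, and RPKM are CPM per kilobase of exon. Named members are those called in a comparison (at most 12 of smallest adjusted p per direction) and, in each role, the member of highest control RPKM; other members given with values were chosen after these were seen. Values of 1 tested member are not reported here, though the counts include it. From each list at most 2 called genes per direction were named. The code was tested on simulated data. Alternatives were DESeq2 1.42.0, RLE scaling, other filters, only the 8 libraries compared, a replicate block and offsets for GC content and length. Others were leaving out each library, controls matched on Xist counts and BAF155 cKO libraries of 1 lane.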

Additional observations from a re-analysis of the deposited data

Results flagged for a closer look

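In groups of 4 libraries, a value far from the other 3 was looked for in the 32 members called in any of the 3 comparisons, 96 groups in all (gap over range above Dixon's critical value). It was met in 6 groups, and chance gives about 1 in 20. Control replicate 2 was low in Col4a5, at 18.66 CPM where the others were at 23.4 to 23.76 CPM, and high in Col6a1, at 1.326 CPM where the others were at 0.5733 to 0.6285 CPM. BAF155 cKO replicate 2 was high in Col4a5, at 17.2 CPM against 13.4 to 13.6 CPM. BAF155 cKO replicate 4 was high in Col4a4, at 2.298 CPM against 1.522 to 1.592 CPM. The labelled Pax6 cKO replicate 2 was low in Col6a5, at 0.65 CPM against 0.9183 to 0.9606 CPM. Control replicate 3 was high in Lama5, at 20.98 CPM against 16.76 to 17.48 CPM.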

How the results depend on the processing

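No call on a member changed its direction under the alternatives run. Of the calls against control, 4 of 18 lower in BAF155 cKO cortex (Lama1, Lama5, Col4a6 and Col16a1) and 12 of 23 lower in cortex labelled Pax6 cKO passed under every one, and 0 of the 2 and 0 of the 5 higher. Between the cKO groups 1 of the 5, Col22a1, did. In BAF155 cKO against control, the 998 genes higher and 1248 lower became 379 and 656 with only the 8 libraries compared. They became 1822 and 2472 with the 2 controls matched on Xist counts, and 258 and 424 with lane 1 alone. With matched controls 1 member was called higher, which was neither of the 2 called with all controls, and with lane 1 alone 0 were. The 18 lower became 4 with lane 1 alone. In cortex labelled Pax6 cKO, the 2745 genes higher and 3121 lower became 530 and 845 with matched controls, where members gave 0 higher and 13 lower. The 5 members higher became 9 with only the 8 libraries compared and 10 with GC and length offsets. Between the cKO groups, the 379 genes higher became 723 with DESeq2 and 142 with lane 3 alone, and the 332 lower became 604 with DESeq2, 164 with lane 1 alone and 67 with lane 3 alone. The 3 members lower became 0 with lane 1 alone and 1 with lane 3 alone. The cause of these changes was not tested; fewer libraries enter several of these fits.

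On leaving out each of the 12 libraries, BAF155 cKO against control gave 346 to 1973 genes higher and 655 to 2100 lower, with 0 to 5 members higher and 12 to 22 lower. The lowest of both gene counts came without BAF155 cKO replicate 4 and the highest without BAF155 cKO replicate 2; counts also moved by over 1.5 times without BAF155 cKO replicate 1 (515 and 809) and control replicates 3 (413 and 751) and 4 (496 and 791). The libraries labelled Pax6 cKO gave 1732 to 2918 higher and 2093 to 3693 lower, with 2 to 6 members higher and 20 to 24 lower; genes higher were 1732 without control replicate 3 and 1798 without control replicate 4, and members higher were 2 without either, or without labelled replicate 2 or 3, and 3 without control replicate 2. Between the cKO groups 158 to 511 genes were higher and 143 to 389 lower, with 1 to 2 and 1 to 4 members. There, genes higher fell to 216 without BAF155 cKO replicate 2 and to 203, 179, 158 and 161 without labelled Pax6 cKO replicates 1 to 4, and genes lower to 177, 202 and 203 without BAF155 cKO replicates 1, 2 and 3 and to 195, 143, 152 and 146 without labelled replicates 1 to 4.

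Correlations of deviations ran from −0.343 to 0.504 between same-numbered libraries of different groups and from −0.501 to 0.455 between the others. The highest was between replicate 1 of the BAF155 cKO and of the libraries labelled Pax6 cKO. With so few libraries these values neither show nor exclude a pairing by number. With the replicate block, members higher in cortex labelled Pax6 cKO were 8, and genes higher between the cKO groups 250. No scaling moved the median over all genes by over 0.1. Depth limits the calls on Lamb3, Col4a3, Col6a4, Col6a5 and Col8a2, which rest on 98 to 264 reads each.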
